A study of Sus scrofa with 24 samples.

Results

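The perineuronal net and the looser matrix around brain cells are built from a small set of genes, and 9 of them were followed here in the piglet hippocampus: the lecticans ACAN, BCAN, NCAN and VCAN, the link proteins HAPLN1, HAPLN2 and HAPLN4, and the tenascins TNR and TNC. They were picked by name as a family of matrix genes, with earlier results of these data known, and were located in the count files by Entrez gene identifier. The identifiers of 7 of the 9 genes are among the 38882 genes listed, and all 7 passed the low-count filter that kept 16326 genes. NCAN and HAPLN4 were not analysed here, so no statement below covers them.

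Hippocampi were taken from 24 PIC Camborough × PIC 359 piglets, 14 days old, which formed 4 groups of 6. SGA piglets were small for gestational age and AGA piglets were appropriate for gestational age, as judged by birth weight, and no gene was altered in either. Each was fed a control formula (CON) or a hydrolyzed fat formula (HF). Every SGA piglet had a same-sex AGA littermate on the same diet, which gave 12 litters in 2 cohorts of 6, with 3 litters of each diet per cohort. Size was therefore compared between littermates and diet between litters. Each library is whole hippocampal tissue, in which fewer cells of a type and less RNA per cell cannot be told apart.

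Lecticans are chondroitin sulfate proteoglycans that bind hyaluronan at 1 end and tenascins at the other. Link proteins lock the hyaluronan bond in place, and the assembled lattice condenses around the soma of fast-spiking interneurons and, with other members, around the nodes of Ranvier of myelinated axons. In the young brain this matrix is still being laid down while axons myelinate.

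In the pig genome build of the files, Sscrofa10.2, lecticans and link proteins lay side by side. BCAN lay at chr4:102095832-102114192 on the minus strand, 11608 bases from HAPLN2 at chr4:102125801-102128123 on the same strand, with no other gene listed wholly between them. VCAN lay at chr2:93783322-93895492 on the plus strand, and HAPLN1 followed 45830 bases on, at chr2:93941323-94019486 on the minus strand, with 1 gene listed between them. ACAN lay at chr7:59444443-59484493 on the plus strand, 1953 bases from HAPLN3, a further link protein of the same family. The tenascins stood apart from this arrangement, TNR at chr9:129110238-129553412 and TNC at chr1:286732751-286813962, both on the minus strand. Reads were counted on exons and by strand, and the exons add up to between 1395 bases (HAPLN2) and 12288 bases (VCAN).

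Between 6017336 and 9284355 reads per library were assigned to listed genes, at which 3 reads equal 0.323 to 0.499 CPM (reads scaled to library size, after TMM normalization). Each of 8 markers of excitatory hippocampal neurons was detected in every library, among them PROX1 of dentate granule cells at 37.1 to 64.3 CPM. AGA CON replicate 2 had the highest value of its group for 5 of the 7 matrix genes (BCAN, VCAN, HAPLN1, TNR and TNC), and AGA CON replicate 6 had the lowest for 5 (ACAN, BCAN, VCAN, HAPLN2 and TNR).

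Brevican (BCAN) led the matrix by a wide margin. Per kilobase of exon, its level was 268 ± 43.7 RPKM (mean ± SD, n = 24 libraries), higher than 98.0% of the genes tested. HAPLN2 came next at 30.5 ± 8.66 RPKM, and BCAN exceeded it 8.79-fold on this scale. TNR at 7.92 ± 1.73 RPKM and HAPLN1 at 7.07 ± 0.918 RPKM were neighbours in the order whose levels were not separated, since TNR was the higher in 16 of 24 libraries. VCAN at 3.54 ± 0.5003 RPKM was below HAPLN1 in all 24 libraries. Aggrecan (ACAN), the lectican most closely tied to mature perineuronal nets, was at 0.866 ± 0.228 RPKM, which exceeded 16.5% of tested genes. TNC was the lowest at 0.569 ± 0.256 RPKM, below ACAN in 20 of 24 libraries. The order did not change when plain library totals replaced TMM scaling, under which BCAN was at 269 RPKM and TNC at 0.574 RPKM.

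**Figure D1:**
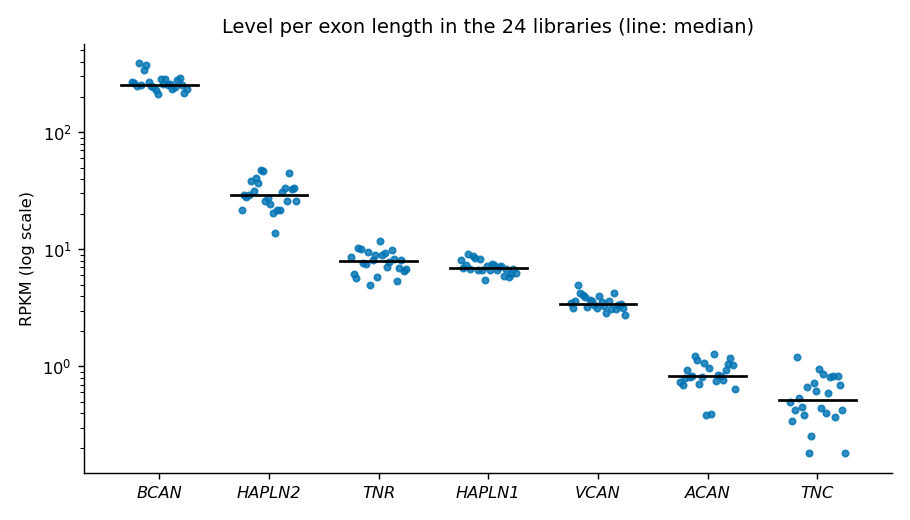
RPKM (log axis) of the 7 matrix genes in the 24 libraries, with a line at each median. BCAN lies between 211 and 387 RPKM in every library, far above the other genes, while TNR and HAPLN1 overlap and TNC spans 0.181 to 1.19 RPKM.

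Aggrecan, which gives the perineuronal net its bulk, ranged 3.30-fold over the 24 libraries, from 2.94 to 9.71 CPM, on 21 to 83 reads. The lowest, median and highest values were 2.94, 6.32 and 8.76 CPM in AGA CON and 5.44, 6.14 and 9.34 CPM in AGA HF piglets. They were 3.03, 6.05 and 8.98 CPM in SGA CON and 5.82, 7.62 and 9.71 CPM in SGA HF piglets. The 4 groups overlapped, and both CON groups reached lower than either HF group. In edgeR's quasi-likelihood fit with sex and 5 surrogate variables, the HF minus CON log2 fold change of ACAN was 0.25 (95% interval -0.13 to 0.63). Over the 12 litter means the difference was 0.28 (two-sided exact permutation p = 0.199), so it was not larger than the spread between litters. The SGA piglet was the lower littermate for ACAN in 6 of 12 litters, with a mean difference of 0.06 ± 0.50 on the log2 scale (SD, exact sign-flip p = 0.663).

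Brevican, the brain-specific lectican made by glia and neurons, ranged 1.83-fold over the 24 libraries, and both ends of that range were AGA CON piglets. The lowest, median and highest values were 701, 889 and 1282 CPM in AGA CON and 767, 836 and 1244 CPM in AGA HF piglets. They were 771, 840 and 924.4 CPM in SGA CON and 712, 898 and 957 CPM in SGA HF piglets. The 3 highest values belonged to AGA CON replicates 2 and 3, at 1282 and 1121 CPM, and AGA HF replicate 4, at 1244 CPM, and the highest SGA piglet was at 957 CPM. The coefficient of variation was 20.2% over the 12 AGA piglets and 9.16% over the 12 SGA piglets, a difference in spread that was not tested. Littermates differed by -0.10 ± 0.31 (log2, SGA minus AGA, n = 12 litters, exact sign-flip p = 0.276). In the litters of the 3 AGA piglets just named the difference lay between -0.61 and -0.52, and in the other litters between -0.11 and 0.21. Those 3 piglets were picked for high values, which by itself favours low differences in their litters. Litter means of BCAN differed between diets by -0.0040 (log2, HF minus CON, exact permutation p = 0.961).

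Versican (VCAN), a widely expressed lectican whose brain forms occur in white matter and at nodes, had its lowest median in the SGA CON group. Its lowest, median and highest values were 38.5, 42.2 and 61.0 CPM in AGA CON and 41.5, 45.1 and 52.0 CPM in AGA HF piglets. They were 33.9, 38.1 and 43.8 CPM in SGA CON and 38.6, 42.7 and 51.8 CPM in SGA HF piglets. All 4 ranges overlapped. The SGA littermate was lower in 9 of 12 litters, by a mean of -0.14 ± 0.26 on the log2 scale (exact sign-flip p = 0.0732). At least 9 of 12 litters with a lower SGA piglet were found for 11.7% of all genes tested. Without the litter of AGA CON replicate 2 the mean was -0.08 (exact p = 0.146), and without litter 1 or litter 2 it was -0.17 (exact p = 0.0273 and 0.0312). Litter means of VCAN were 0.11 higher on HF than on CON (log2, exact permutation p = 0.154).

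The link protein HAPLN1, which stabilizes perineuronal nets, spread least of the 7 genes, with a coefficient of variation of 12.98% over the 24 libraries. Its lowest, median and highest values were 35.03, 37.4 and 48.6 CPM in AGA CON and 29.1, 41.1 and 44.5 CPM in AGA HF piglets. They were 32.7, 35.8 and 39.5 CPM in SGA CON and 30.6, 35.5 and 39.0 CPM in SGA HF piglets. The highest SGA value was 39.5 CPM, and 5 AGA piglets were above it, AGA CON replicates 2 and 3 and AGA HF replicates 1, 4 and 5. This cut was taken from the same values and tests nothing. Littermates differed by -0.15 ± 0.26 (log2, lower in 8 of 12 litters, exact sign-flip p = 0.0669). With each litter left out in turn, the mean lay between -0.20 and -0.12 and the exact sign-flip p between 0.0205 and 0.134. The lowest p came without litter 11, in which the SGA piglet was the higher by 0.30. The littermate difference was alike on both diets, at -0.15 ± 0.21 in CON litters and -0.16 ± 0.32 in HF litters (n = 6 each, exact permutation p of the difference = 0.959).

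HAPLN2, the link protein of nodes of Ranvier that is made by oligodendrocytes, had the lowest mean littermate difference (SGA minus AGA) of the set, though TNC differences were more widely spread. Its lowest, median and highest values were 38.5, 42.4 and 65.2 CPM in AGA CON and 30.3, 46.3 and 66.2 CPM in AGA HF piglets. They were 28.2, 35.9 and 45.5 CPM in SGA CON and 19.2, 40.3 and 62.6 CPM in SGA HF piglets. The groups overlapped, and the pattern lay within litters. In CON litters, replicates 1 to 6, the AGA and SGA values were 40.5 and 28.2, 40.8 and 30.5, 43.9 and 42.9, 51.9 and 35.8, 65.2 and 45.5, and 38.5 and 35.999 CPM. The SGA piglet was thus the lower in all 6 CON litters. In HF litters, replicates 1 to 6, they were 30.3 and 34.2, 38.9 and 19.2, 53.6 and 30.4, 56.6 and 46.5, 66.2 and 62.6, and 36.3 and 46.9 CPM. Here the SGA piglet was the lower in 4 of 6 litters, replicates 1 and 6 being the exceptions.

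The mean littermate difference of HAPLN2 was -0.31 ± 0.40 on the log2 scale (n = 12 litters, lower in 10 of 12, two-sided exact sign-flip p = 0.0205). It was -0.35 ± 0.23 in CON and -0.27 ± 0.54 in HF litters, and these did not differ by more than the spread (exact permutation p = 0.749). Of the 7 matrix genes, HAPLN2 alone had an exact p under 0.05, and 12.6% of all genes tested had one, 6.81% with the SGA piglet lower. A lower SGA piglet in at least 10 of 12 litters was seen in 4.86% of all genes. The p stayed between 0.00684 and 0.0410 when each litter was left out in turn. Within cohort 1 the mean was -0.44 (exact p = 0.0938) and within cohort 2 it was -0.19 (exact p = 0.219), each over 6 litters, for which 0.0312 is the smallest p that can be reached.

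**Figure D2:**
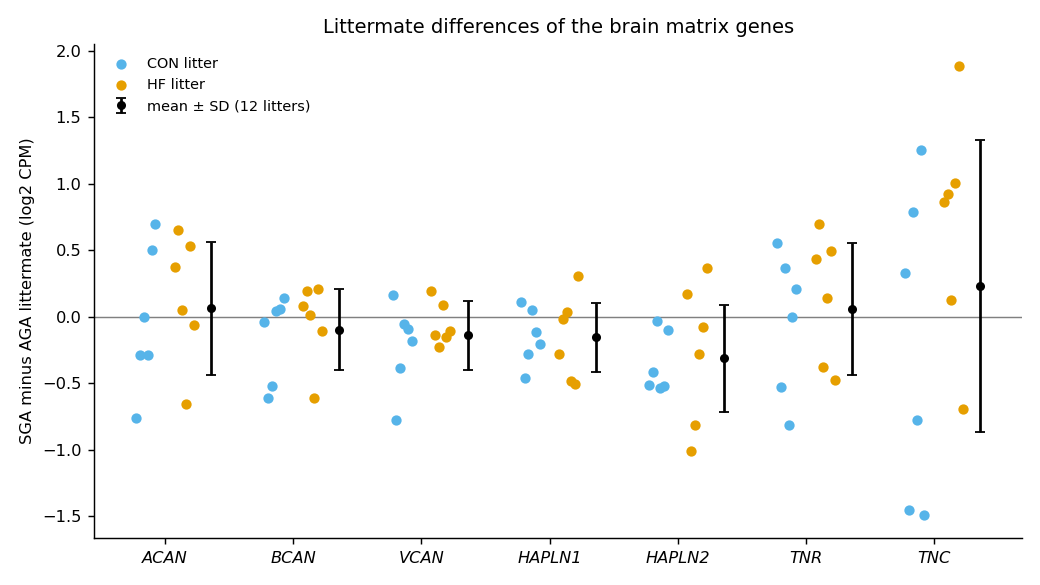
SGA minus AGA difference in log2 CPM for the 7 matrix genes, 1 point per litter and coloured by diet, with the mean ± SD of 12 litters beside them. HAPLN2 lies below 0 in 10 of 12 litters, and TNC differences reach from -1.49 to 1.88.

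None of the 7 matrix genes was called for size in any fit, and the log2 fold change of HAPLN2 was larger in the fits without surrogate variables. The main fit of the 4 groups, sex and 5 surrogate variables (edgeR, quasi-likelihood, FDR over 7 contrasts, threshold 0.4) called 0 of 7 genes for size, against 0.478% of all genes tested. None of the 7 had an unadjusted p under 0.05 there, against 10.6% of all genes. HAPLN2 differed by -0.09 in this fit (95% interval -0.38 to 0.21, FDR-adjusted p = 0.947), with 51.7% of its variance lying on the surrogate variables (43.7% for the median gene). With litter as a block in place of those terms, its log2 fold change was -0.31 (95% interval -0.52 to -0.10, SE 0.10, unadjusted p = 0.00667, FDR-adjusted p = 0.424 by edgeR), just outside the threshold. The block fit called 2.57% of all genes, and 12.4% had an unadjusted p under 0.05 there, as had HAPLN2 alone of the 7. With sex and cohort as terms, and neither surrogate variables nor litter, HAPLN2 was at -0.31 (-0.56 to -0.06, unadjusted p = 0.0174, FDR-adjusted p = 0.729, edgeR), so the value without surrogate variables was alike with and without the block. In that fit HAPLN1 at -0.16 (-0.30 to -0.02) and VCAN at -0.15 (-0.29 to -0.0026) also had an unadjusted p under 0.05, making 3 of 7 against 11.1% of all genes, and 0 of 7 were called against 0.649%. The blocked log2 fold changes of VCAN and HAPLN1 were -0.14 (-0.29 to 0.0091) and -0.16 (-0.31 to 0.0023), against -0.08 for both genes with surrogate variables. BCAN was at -0.10 (-0.26 to 0.07) with the block and -0.03 (-0.19 to 0.13) without it. TNR, at -0.06 (-0.18 to 0.06) with surrogate variables, was at 0.06 (-0.19 to 0.31) with the block.

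**Figure D3:**
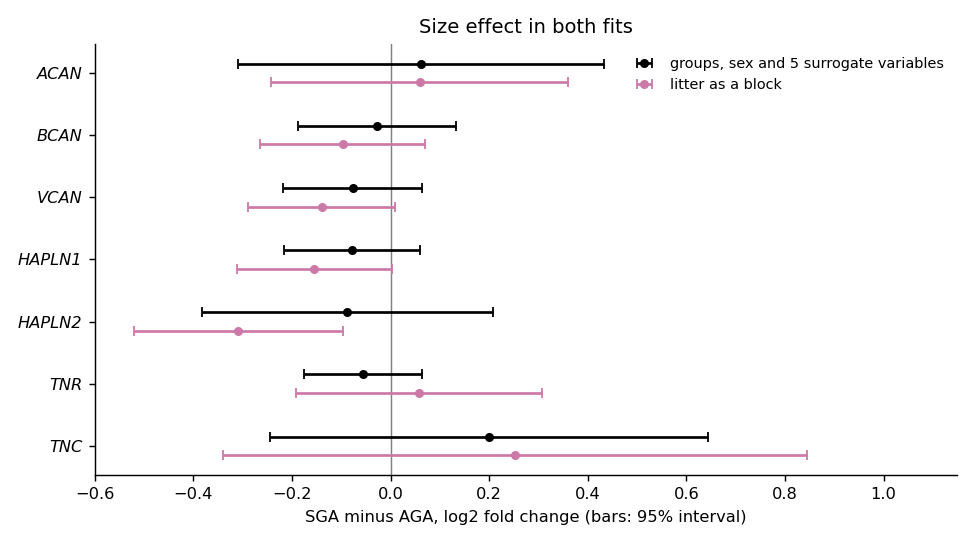
SGA minus AGA log2 fold change of each matrix gene with its 95% interval, in the fit with sex and 5 surrogate variables (black) and in the fit with litter as a block (pink). The interval of HAPLN2 leaves out 0 with litter as a block (-0.52 to -0.10) and spans it with surrogate variables (-0.38 to 0.21), and every other interval spans 0.

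HAPLN2 and the myelin genes differed in the same direction in most litters. The summed level of 11 markers of myelinating oligodendrocytes, among them MBP, MOBP, CNP and MAG, ranged from 10767 to 21249 CPM in SGA and from 12956 to 24190 CPM in AGA piglets. No marker of the list was at 0 in any library, the lowest single value being 0.694 CPM for ERMN. The sum was lower in the SGA piglet in 11 of 12 litters, by a mean of -0.33 ± 0.24 on the log2 scale (exact sign-flip p = 0.00244). HAPLN2 and the sum went in the same direction in 11 of 12 litters, both lower in 10 and both higher in litter 1, the litter of HF replicate 1. The exception was HF replicate 6, in which the difference was 0.37 for HAPLN2 and -0.15 for the sum. Since HAPLN2 and the sum were each lower in most litters, those totals largely fix this agreement. It therefore says little about whether they vary together from litter to litter. In the block fit 6 of the 11 markers were called, against 2.57% of all genes. All 6 were lower in SGA piglets, with CNP at -0.42 (FDR-adjusted p = 0.0366, edgeR) and MBP at -0.32 (FDR-adjusted p = 0.182). With surrogate variables none of the 11 was called, although all 11 had a negative log2 fold change, with a median of -0.22. In that fit CNP, CLDN11, OPALIN, UGT8 and MAL had an unadjusted p under 0.05 (edgeR), as had 10.6% of all genes. The part of the myelin markers in the HAPLN2 difference was not tested. Summed astrocyte markers were lower in the SGA piglet in 7 of 12 litters, and summed markers of oligodendrocyte progenitors in 11 of 12, by means of -0.08 ± 0.14 and -0.10 ± 0.15. Both of these sums went in the direction of HAPLN2 in 9 of 12 litters, and that of excitatory neuron markers in 3.

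**Figure D4:**
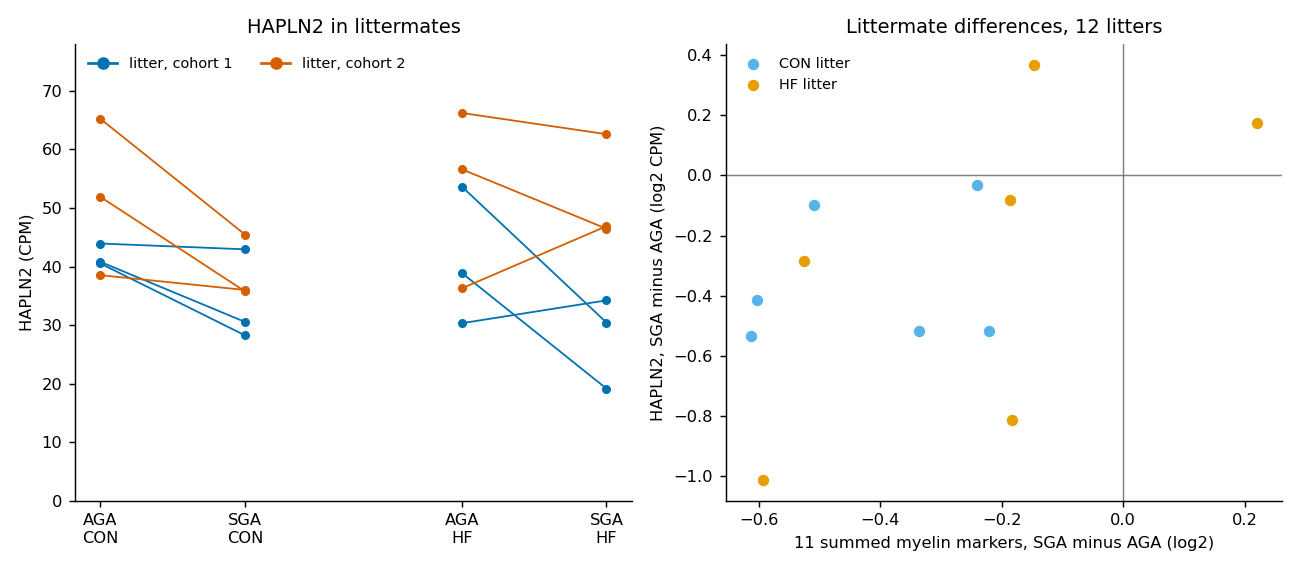
Left, HAPLN2 CPM in each AGA and SGA littermate, joined by litter and coloured by cohort, on CON and HF. Right, the SGA minus AGA log2 difference of HAPLN2 against that of 11 summed myelin markers, 1 point per litter, with both differences below 0 in 10 of 12 litters.

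Tenascin R (TNR), the tenascin that cross-links lecticans in mature nets and is made by oligodendrocytes and some neurons, varied 2.36-fold over the 24 libraries without a group pattern. Its lowest, median and highest values were 65.7, 88.4 and 115 CPM in AGA CON and 55.8, 91.5 and 114 CPM in AGA HF piglets. They were 60.3, 85.3 and 111 CPM in SGA CON and 73.1, 90.6 and 132 CPM in SGA HF piglets. The highest value, 132 CPM, was SGA HF replicate 1 and the lowest, 55.8 CPM, was AGA HF replicate 5. Littermates differed by 0.06 ± 0.50 (log2, SGA higher in 8 of 12 litters, exact sign-flip p = 0.686). Of the variance of TNR, 89.0% lay on the 5 surrogate variables, against 43.7% for the median gene. Its SE for size was 0.06 in that fit and 0.12 with litter as a block.

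Tenascin C (TNC), which marks immature and proliferative tissue, was near the limit of what these libraries resolve, with 5 to 36 reads. Its lowest, median and highest values were 1.16, 2.42 and 5.42 CPM in AGA CON and 0.824, 2.10 and 3.27 CPM in AGA HF piglets. They were 0.822, 1.91 and 3.69 CPM in SGA CON and 1.92, 3.78 and 4.36 CPM in SGA HF piglets. The SGA HF group had the highest median, and its range overlapped those of all other groups. TNC was higher in the SGA piglet in 5 of 6 HF litters, by a mean of 0.68 ± 0.88, and in 3 of 6 CON litters, with a mean of -0.23 ± 1.18 (log2). The diets did not differ in this littermate difference by more than the spread (0.91, exact permutation p = 0.164). In the pairwise comparison of HF with CON in SGA piglets, TNC had a log2 fold change of 0.48 (95% interval -0.10 to 1.07), with an unadjusted p of 0.1001 and an FDR-adjusted p of 0.794 (edgeR), the smallest unadjusted p of any of the 7 genes in the 7 contrasts of the fit with surrogate variables.

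**Figure D5:**
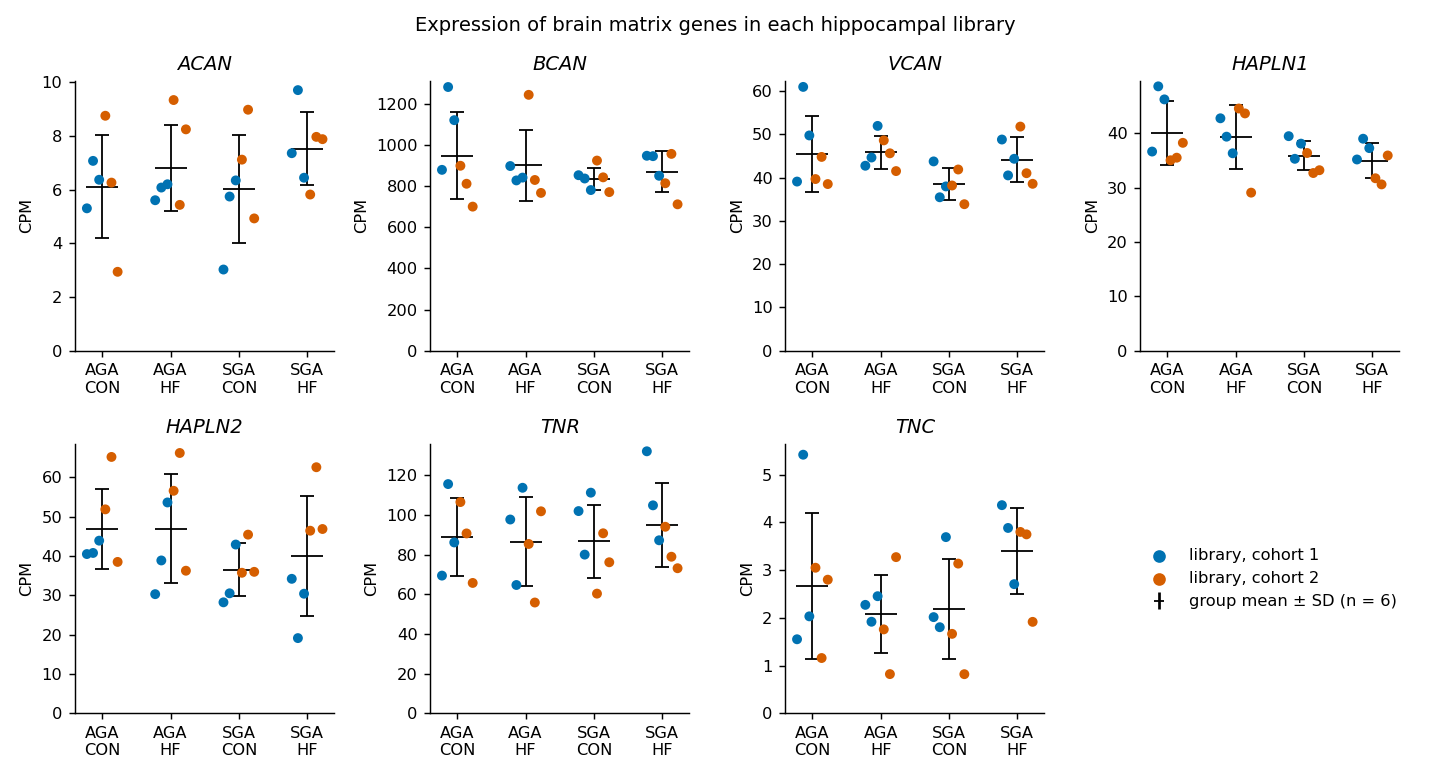
CPM of the 7 matrix genes in each library by group (n = 6 each), coloured by cohort, with the group mean ± SD. The groups overlap for every gene. The 3 highest BCAN values are AGA piglets, and HAPLN2 is higher in cohort 2, with medians of 36.6 and 46.7 CPM.

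The hydrolyzed fat formula was not followed by a change in the matrix genes that passed the test. For diet, 0 of 7 genes were called and 0 had an unadjusted p under 0.05 (edgeR), against 0.159% and 7.09% of all genes. The log2 fold changes ran from -0.09 for HAPLN1 (95% interval -0.23 to 0.05) to 0.28 for TNC (-0.16 to 0.73). VCAN, at 0.05 (-0.09 to 0.19) in this fit, was at 0.15 (0.04 to 0.26, unadjusted p = 0.0110, FDR-adjusted p = 0.447, edgeR) without AGA CON replicate 2, a fit in which 10.5% of all genes had an unadjusted p under 0.05 and 2.65% were called. In that fit VCAN was at 0.17 for HF and CON in SGA piglets (0.0019 to 0.33), where 4.54% of all genes had an unadjusted p under 0.05 and 0.576% were called. In cohort 2 alone VCAN was at 0.17 (unadjusted p = 0.0458, FDR-adjusted p = 0.888, edgeR), against 5.38% of all genes with such a p and 0.00613% called. Diet goes with litter, so that no litter block could be fitted for it. On counts summed over littermates the range was -0.04 for HAPLN1 to 0.24 for ACAN (-0.13 to 0.61), with 0 of 7 genes called against 0.00613% of all genes and 0 with an unadjusted p under 0.05 against 3.98% (edgeR). Over litter means, the exact p of the 7 genes lay between 0.154 (VCAN) and 0.961 (BCAN), and 4.1% of all genes had one under 0.05.

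The size by diet interaction asks whether small piglets responded to the formula differently. It gave 0 of 7 calls and 0 unadjusted p under 0.05 (edgeR), against 0.049% and 4.01% of all genes. Its log2 differences ran from -0.06 for ACAN (95% interval -0.76 to 0.63) to 0.40 for TNC (-0.42 to 1.22). With litter as a block 0 of 7 were called and 0 had an unadjusted p under 0.05, against 0.276% and 3.73%. Exact permutations of the littermate differences gave 0 of 7 a p under 0.05, against 4.36%. The pairwise comparisons called 0 of 7 genes in each case, against 0.129% of all genes for SGA and AGA on CON, 0.288% on HF, 0.0674% for HF and CON in AGA piglets and 0.0919% in SGA piglets. In these 4 comparisons 0 of 7 genes had an unadjusted p under 0.05 (edgeR), against 6.59%, 8.02%, 6.09% and 5.16% of all genes. DESeq2 and limma voom also called 0 of 7 in each of the 7 contrasts and gave 0 unadjusted p under 0.05, while they called 0.104% to 1.29% and 0.00613% to 0.325% of all genes. In the block fit 0 of 7 genes were called for SGA and AGA on either diet (edgeR). On CON 2 of 7 had an unadjusted p under 0.05, HAPLN2 at -0.36 (-0.65 to -0.06, FDR-adjusted p = 0.531) and VCAN at -0.22 (-0.43 to -0.01, FDR-adjusted p = 0.591), and on HF 0 of 7. That fit called 1.26% of all genes on CON and 0.888% on HF, and 8.64% and 8.13% had an unadjusted p under 0.05.

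Of the 7 genes HAPLN2 had the largest difference between the cohorts of litters. On counts summed over littermates, with diet and sex in the model, HAPLN2 was higher in cohort 2 by 0.51 (log2, SE 0.13, 95% interval 0.23 to 0.79, unadjusted p = 0.00158, FDR-adjusted p = 0.128, edgeR). Litter means of HAPLN2 had a lowest, median and highest value of 29.0, 35.03 and 43.4 CPM in cohort 1 and 37.3, 47.7 and 64.4 CPM in cohort 2. HAPLN1 and TNR were at -0.17 (FDR-adjusted p = 0.323) and -0.20 (FDR-adjusted p = 0.373), toward lower values in cohort 2. Over litter means the exact permutation p was 0.0152 for HAPLN2, 0.00433 for HAPLN1 and 0.039 for TNR, and 12.5% of all genes had one under 0.05. With the threshold at an FDR-adjusted p of 0.05, 0 of 7 genes were called, against 0.447% of all genes, and 3 of 7 had an unadjusted p under 0.05, against 11.2%. DESeq2 called HAPLN2 (FDR-adjusted p = 0.0179), as did edgeR without a low-count filter (FDR-adjusted p = 6.29e-07), fits that called 1.39% and 2.48% of all genes. The fit without a filter also called 1.09% of all genes for diet, against 0.00613% with the filter. HAPLN1 had no unadjusted p under 0.05 in it, and its p for HAPLN2 is not weighed above that of the filtered fit. All 11 myelin markers had a positive log2 fold change in cohort 2, with a median of 0.42, and 9 of them an unadjusted p under 0.05, while their sum ranged from 10767 to 20871 CPM in cohort 1 and from 11893 to 24190 CPM in cohort 2. Summed microglial markers had medians of 125 and 201 CPM in cohorts 1 and 2. The part of these markers in the cohort difference was not tested. Between male and female litters 0 of 7 genes were called and 0 had an unadjusted p under 0.05 (edgeR), against 0.104% and 3.65% of all genes, the largest value being 0.21 for HAPLN2 (male minus female, -0.07 to 0.49).

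The wider machinery of the matrix was taken from lists of 81 genes for hyaluronan turnover, further net components, chondroitin sulfate synthesis and lectican-cleaving proteases, of which 66 could be tested. In the main fit 0 of 66 were called for size and 0 for diet (edgeR), against 0.478% and 0.159% of all genes. For size 6 of 66 had an unadjusted p under 0.05, against 10.6% of all genes, and for diet 9 of 66 had, against 7.09%. Their median log2 fold change was 0.01 for both, against -0.06 for the 7 matrix genes and -0.0023 for all genes tested for size. Among the 10 genes of hyaluronan synthesis, receptors and turnover 1 of 10 had an unadjusted p under 0.05 for size (10.6% of all genes), among 19 net components 2, among 23 genes of chondroitin sulfate synthesis and sulfation 3, and among 14 proteases and inhibitors 0.

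Genes that build the chondroitin sulfate chains of lecticans had the smallest p of these 66 for size in both directions. XYLT1, which starts the chain on the core protein, had a lowest, median and highest value of 41.0, 44.2 and 53.7 CPM in AGA and 46.8, 53.1 and 64.9 CPM in SGA piglets. Its log2 fold change was 0.17 (SE 0.05, FDR-adjusted p = 0.506), and with litter as a block 0.23 (SE 0.06, FDR-adjusted p = 0.273), which passed the threshold. UST, which adds sulfate to the uronic acid of the chain, had values of 30.9, 34.1 and 39.7 CPM in AGA and 27.0, 30.2 and 36.1 CPM in SGA piglets, a log2 fold change of -0.18 (SE 0.06, FDR-adjusted p = 0.567). The block fit called 1 further gene of the 66, CRTAC1, at 0.27 (FDR-adjusted p = 0.373), which was singled out after its value was seen. That fit called 2.57% of all genes for size, so calls among 66 genes were near that share. For diet, B4GALT7, an enzyme of the linker that joins chain and core protein, had a log2 fold change of 0.21 on HF (SE 0.06, FDR-adjusted p = 0.497). SPOCK1, which encodes the proteoglycan testican, was at -0.18 (SE 0.05, FDR-adjusted p = 0.470). Without AGA CON replicate 2 its FDR-adjusted p was 0.203 (edgeR), which passed the threshold in a fit that called 2.65% of all genes for diet. On counts summed over littermates the diet values were 0.12 for B4GALT7 and -0.14 for SPOCK1, both with an FDR-adjusted p of 0.999.

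The 7 genes did not vary as a unit. With the mean of each cohort subtracted, the pairwise Pearson correlations of log2 CPM over the 24 libraries ran from -0.259 for HAPLN1 and TNR to 0.631 for TNC and TNR. These points share litters, and each library's depth enters both values, so the correlations describe these libraries and carry no p. Neighbours on a chromosome were not the closest pairs, with 0.231 for BCAN and HAPLN2 and 0.392 for VCAN and HAPLN1. BCAN and VCAN were at 0.570 and BCAN and HAPLN1 at 0.542. Littermate differences of ACAN and BCAN had the same sign in 11 of 12 litters and those of TNR and TNC in 10, whereas those of HAPLN1 and TNR had the same sign in 2.

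The genes whose pattern was most like each matrix gene over the 24 libraries differed from gene to gene. For HAPLN2 they were CDK18 (r = 0.762), RFFL (0.757) and ANLN (0.752). Its correlation with the 11 myelin markers had a median of 0.599 and was positive for all 11, against a median of -0.0058 over all genes tested. For VCAN they were EPB41L2 (0.810), CHSY1 (0.783), an enzyme that extends chondroitin sulfate chains, and GPT2 (0.771). The median correlation of VCAN was 0.443 with the myelin markers, 0.403 with the astrocyte markers and 0.383 with those of oligodendrocyte progenitors. With markers of excitatory neurons it was -0.401. For BCAN they were UBXN11 (0.816), ROM1 (0.776) and PHGDH (0.775), an enzyme of serine synthesis that is high in astrocytes. BCAN had a median correlation of 0.404 with the 10 astrocyte markers and of -0.467 with the 8 excitatory neuron markers. The astrocyte value was not particular to that list. BCAN was at 0.397 with markers of meningeal fibroblasts, 0.326 with those of oligodendrocyte progenitors and 0.307 with those of endothelium. With markers of inhibitory neurons it was at -0.267.

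ACAN was most like LAMA1 (0.747), a laminin chain of basement membranes, CEMIP (0.678), which breaks down hyaluronan, and ENO3 (0.675). With the 10 markers of inhibitory neurons, which include PVALB of fast-spiking cells at 23.4 to 50.3 CPM, ACAN had a median correlation of 0.0041, close to that over all genes. Its highest median over the marker lists was 0.364, with those of meningeal fibroblasts. HAPLN1 was most like SAT1 (0.778), CD63 (0.764) and ASF1A (0.732). TNR was most like ARID1A (0.921), ABCC5 (0.918) and DDX17 (0.916), the highest correlations of any of the 7 genes. TNC was most like ZMYND8 (0.808), FARP1 (0.774) and KDM2A (0.769).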

How the data were processed

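Per the labels and the methods of the study, polyA RNA was sequenced from 1 end with strand kept, trimmed with Trimmomatic 0.33, aligned to Sscrofa10.2 with STAR 2.5.2a and counted on exons per Entrez gene with featureCounts (Subread 1.5.0). The authors deposited these whole-number counts unfiltered. Symbols came from a Sscrofa11.1 table, which 23036 of 38882 identifiers matched. An entry without identifier, 0.613 to 1.62% of reads, was left out. The study attributes the average RNA quality number of its samples to pre-spliced RNA and gives no value per library. RNA quality could therefore not be a term in the fits. Its part in the levels per exon length, in TNR and in the correlations was not tested.

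Counts were TMM-scaled, and genes with 1 CPM in at least 3 libraries were tested with edgeR 4.0.16 (glmQLFit, glmQLFTest) in R 4.3.3. Terms were the 4 groups, sex and 5 surrogate variables (sva 3.50.0), with the FDR over 7 contrasts and the threshold of 0.4 that the study used. Alternatives used DESeq2 1.42.0, limma 3.58.1 voom, other filters, scalings and covariates, single cohorts, littermate sums, and litter as a block. The labels name the litter of each piglet, and littermates' deviations from group means correlated by 0.154 on average (0.0144 to 0.329, 12 pairs, 9 above 0.1). Cohort and sex were tested on littermate sums at an FDR-adjusted p of 0.05. Single genes were compared by exact sign-flip tests over 12 litters (4096 patterns) and exact permutations of 6 against 6 litters, two-sided and unadjusted, on log2 CPM (prior count 2). RPKM used the exon lengths of the files. The size effect of the edgeR fits with surrogate variables and with litter as a block was checked on simulated counts, and the other fits and contrasts were not.

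The genes, lists and rules were chosen with earlier results of these data known. A marker gene of the lists is not reported here and was left out of its list. The text names all 7 measured members, the listed matrix gene with the smallest p in each direction for size and diet, and the 3 tested genes most correlated with each member. The depth per library, 6017336 to 9284355 reads, sets a floor of 3 counts, which covers counting error only. The intervals of log2 fold changes come from the edgeR fits, which also estimate the spread between libraries.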

Additional observations from a re-analysis of the deposited data

Results flagged for a closer look

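Of 28 sets of 6 libraries, 7 genes in 4 groups, 1 held a library that stood apart from the rest by Dixon's criterion, which chance alone meets in about 1 of 20 sets. BCAN was at 1244 CPM in AGA HF replicate 4, while the other 5 piglets of that group lay between 767 and 898 CPM. ACAN and HAPLN1 were also highest of the group in this library, at 9.34 and 44.5 CPM.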

How the results depend on the processing

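No matrix gene was called for size, diet, their interaction or a pairwise contrast under any alternative. The fits without AGA CON replicate 2 and without each litter in turn were chosen after seeing the data. The cause of the changes below was not tested. For size, the log2 fold change of TNR turned from -0.06 to 0.032 with sex and cohort in place of surrogate variables, 0.16 in cohort 1 and 0.057 with litter as a replicate block. The block also reversed the interactions of ACAN (0.17), HAPLN1 (-0.0096) and TNR (0.18), the size value on CON of ACAN (-0.025) and those on HF of BCAN (-0.037) and TNR (0.15), and changed no call of a matrix gene. With sex and cohort the size values of HAPLN2, HAPLN1 and VCAN were -0.31, -0.16 and -0.15 (-0.09, -0.08 and -0.08 with surrogate variables), the interactions of ACAN, HAPLN1 and TNR were 0.17, -0.017 and 0.19 and the diet value of HAPLN2 was 0.049. In cohort 1 the interactions of ACAN, HAPLN2 and TNR were 0.67, -0.28 and 0.13. In cohort 2 those of BCAN, HAPLN1 and TNR were -0.25, -0.16 and 0.23, and the diet values of BCAN, HAPLN1 and HAPLN2 were 0.10, 0.025 and 0.23. Some unadjusted p were under 0.05 in cohort 1 alone (edgeR). They were BCAN for the interaction (0.0178) and for HF and CON in AGA piglets (0.0197), and ACAN for HF and CON in SGA piglets (0.0306). HAPLN2 had one for size (0.0103) and for size on HF (0.0163), and BCAN and VCAN for size on CON. No FDR-adjusted p there was below 0.97, and these contrasts called 0.0% to 0.00613% of all genes. Without AGA CON replicate 2 the diet values of BCAN and HAPLN1 were 0.061 and 0.014, and their interactions -0.0095 and -0.057, while the diet value of VCAN was 0.15 in place of 0.053. On littermate sums the diet value of HAPLN2 was 0.033. Litter-mean diet differences reversed for BCAN (0.086), HAPLN1 (0.012) and TNR (-0.00090) in cohort 2 and for HAPLN2 (-0.18) in cohort 1. The littermate difference of TNR was -0.074 in cohort 2, and that of HAPLN2 was -0.44 in cohort 1 and -0.19 in cohort 2, where 6 litters allow no p below 0.0312. Leaving out each litter gave -0.17 to -0.082 for VCAN, -0.20 to -0.12 for HAPLN1, -1.2e-05 to 0.14 for TNR, 0.0047 to 0.14 for ACAN, -0.13 to -0.051 for BCAN, -0.38 to -0.25 for HAPLN2 and 0.078 to 0.39 for TNC. For cohort, DESeq2 and the fit without a low-count filter each called 1 matrix gene, HAPLN2, and 1.39% and 2.48% of all genes. Over all genes the size calls numbered 78, but 210 by DESeq2, 420 with the block, 1200 with the FDR over the contrast alone and 402 without AGA CON replicate 2, and the diet calls 26, but 88 by DESeq2, 433 without that library and 1 on littermate sums. Depth limits ACAN and TNC most, with as few as 21 and 5 reads in a library.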

Other observations

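The genes named in these observations were picked after their values were seen. The summed markers of excitatory hippocampal neurons were higher in the SGA littermate in most litters, unlike myelin genes and HAPLN2. Their summed level was lower in the SGA piglet in 3 of 12 litters, with a mean littermate difference of 0.15 ± 0.21 on the log2 scale (exact sign-flip p = 0.0283). Of all genes tested, 12.6% had such a p under 0.05. SLC17A7 and CAMK2A, with means of 3380 and 3481 CPM, made up most of the sum, whose mean was 9330 CPM. CAMK2A, a kinase of excitatory synapses, was called for size in the fit with surrogate variables at 0.13 (FDR-adjusted p = 0.308, edgeR), and FIBCD1, a marker of CA1 pyramidal cells, in the block fit at 0.45 (FDR-adjusted p = 0.315). Summed markers of inhibitory neurons differed by 0.09 ± 0.16 (exact p = 0.110).

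Between cohorts, CX3CR1, a microglial receptor, was higher in cohort 2 by 0.81 (log2, FDR-adjusted p = 0.0250, edgeR), and OLIG2, a transcription factor of the oligodendrocyte lineage, by 0.41 (FDR-adjusted p = 0.0430). The choroid plexus transcript TTR ranged from 1.65 to 146 CPM over the 24 libraries.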
